A study of Mus musculus with 8 samples.

Results

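Astrocytes clear transmitter, ions and water from the space around neurons, and 8 genes of that machinery were followed in single nuclei of mouse forebrain with and without injury: Aqp4, Kcnj10, Slc1a2, Slc1a3, Glul, Gja1, Gjb6 and Atp1b2. They were chosen by symbol and are 8 of the 54232 gene IDs in the deposited count matrices. Each of the 8 symbols belongs to 1 gene ID. Tissue beside the lesion (perilesional forebrain) came from Swiss Webster mice, all male and 10 weeks old, and nuclei of the frozen samples were sequenced on the 10x Chromium 3' system. Of the 4 groups, control mice had the control surgery, BCAS mice had BCAS surgery, TBI mice had traumatic brain injury surgery and BCAS+TBI mice had both, with 2 libraries per group that the labels call biological replicates. The labels name no transgene and no drug, give BCAS only as an abbreviation, state no time between surgery and collection, and do not say whether tissue was pooled. Either surgery can thus be set against its absence, and the series title concerns whether cerebral hypoperfusion, a low blood flow to the brain, makes the injury worse.

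Glutamate released at synapses is taken up into astrocytes by the transporters of Slc1a2 (GLT-1) and Slc1a3 (GLAST) along the sodium gradient that the sodium pump keeps up, and the glutamine synthetase of Glul turns it into glutamine, which returns to neurons. Potassium released by firing neurons enters astrocytes through the inward rectifier Kir4.1 of Kcnj10 and the sodium pump, of which Atp1b2 gives the beta subunit AMOG, and spreads through gap junctions built of connexin 43 (Gja1) and connexin 30 (Gjb6). Water moves through aquaporin 4 (Aqp4), which is concentrated on the endfeet that astrocytes wrap around blood vessels. Loss of some of these proteins from astrocytes has been described in brain injuries.

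The files held 28118725 to 56135192 UMIs (unique molecular identifiers, 1 per captured RNA molecule) per library, and 45560 nuclei passed the filters. Clusters were named from marker genes that did not include the 8 genes, and the 8 genes were also left out of the genes used for clustering. The astrocyte-like class held 3305 nuclei, 253 to 566 per library, with medians of 1466 to 2432 UMIs per nucleus and sums of 528327 to 1163176 UMIs per library. Both ends were TBI libraries, with 566 in TBI 1 (11.2% of its nuclei) and 253 in TBI 2 (3.54%), against 6.96% to 8.74% in the other libraries. All 16 astrocyte markers were detected in the astrocyte-like class, and together they reached 14827 to 17931 CPM, the usual scaling of a gene's UMIs by all UMIs of the class in that library. The libraries fell into sets by depth, each with 1 library of every group. Set 1 (control 1, BCAS 1, TBI 1 and BCAS+TBI 2) was shallower, with mitochondrial shares of 1.2% to 2.77%, and set 2 (control 2, BCAS 2, TBI 2 and BCAS+TBI 1) was deeper, with 0.511% to 1.04%. Any pair of libraries shared 5 to 20 cell barcodes. RNA of other cells was present in the astrocyte-like sums. The excitatory neuron markers Slc17a7 and Slc17a6 summed to 55.6 to 119 CPM there against a median of 333 CPM in excitatory neuron-like nuclei, and haemoglobin genes reached 3235 CPM in BCAS+TBI 2 against 30.3 to 204 CPM in the other libraries. No marker list of another cell type had a gene at 0 over the whole astrocyte-like class. The part of this RNA in the results below was not tested.

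The promoters of Kcnj10, Slc1a3 and Gja1 are shown because these genes stand for the 3 patterns described below: higher in the smaller astrocyte-like cluster, lower there, and different between the library sets. Entries of RefSeq's table for GRCm38.p6 were read for 6 of the 8 genes. The 250 bases before the listed start were taken, 5′ to 3′ on the gene's strand. Capitals mark matches to 4 motifs searched on both strands, none of which overlap one another here. AP-1 was searched as TGAGTCA and on the other strand as TGACTCA. The CCAAT box was searched by those letters and on the other strand as ATTGG. The TATA box was searched as TATAAA and on the other strand as TTTATA. The GC box was searched as GGGCGG and on the other strand as CCGCCC. Kcnj10 lies on the plus strand at chr1:172340960-172341209, Slc1a3 on the minus strand at chr15:8710808-8711057 and Gja1 on the plus strand at chr10:56377050-56377299.
Kcnj10: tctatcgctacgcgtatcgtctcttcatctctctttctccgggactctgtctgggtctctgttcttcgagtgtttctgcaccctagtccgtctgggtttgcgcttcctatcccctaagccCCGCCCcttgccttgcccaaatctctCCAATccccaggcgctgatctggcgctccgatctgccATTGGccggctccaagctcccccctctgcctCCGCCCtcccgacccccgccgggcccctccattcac
Slc1a3: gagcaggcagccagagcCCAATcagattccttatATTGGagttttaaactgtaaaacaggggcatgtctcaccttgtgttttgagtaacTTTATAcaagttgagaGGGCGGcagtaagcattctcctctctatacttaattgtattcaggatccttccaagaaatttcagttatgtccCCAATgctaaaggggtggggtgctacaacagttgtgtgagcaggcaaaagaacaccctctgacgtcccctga
Gja1: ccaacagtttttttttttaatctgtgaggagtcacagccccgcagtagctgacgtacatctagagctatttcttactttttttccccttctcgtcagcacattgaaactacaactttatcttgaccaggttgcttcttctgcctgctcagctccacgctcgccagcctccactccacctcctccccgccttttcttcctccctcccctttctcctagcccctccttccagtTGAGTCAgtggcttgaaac
The Kcnj10 window held 2 CCAAT boxes and 2 GC boxes, with 62% G or C. The Slc1a3 window held 3 CCAAT boxes, 1 TATA box and 1 GC box, with 44.8% G or C. The Gja1 window held 1 AP-1 match, near the end that adjoins the listed start of the gene, and none of the other motifs, with 50% G or C. Among 32851 promoter windows of the same length, 4.46% held AP-1, 33.8% a CCAAT box, 12.4% a TATA box and 32.7% a GC box, so only the AP-1 match is in a small share of promoters. These matches are descriptions of letters and not measured binding sites.

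Across the 12 named classes, 7 of the 8 genes had their highest level in astrocyte-like nuclei, in 8 of 8 libraries and with no overlap with the next class, and Gjb6 was higher in fibroblast-like nuclei. The classes are clusters of the same nuclei, so these levels are a description with no test. They are compared within a gene and not between genes, since 3' counts of different genes are not on 1 scale.

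**Figure D1:**
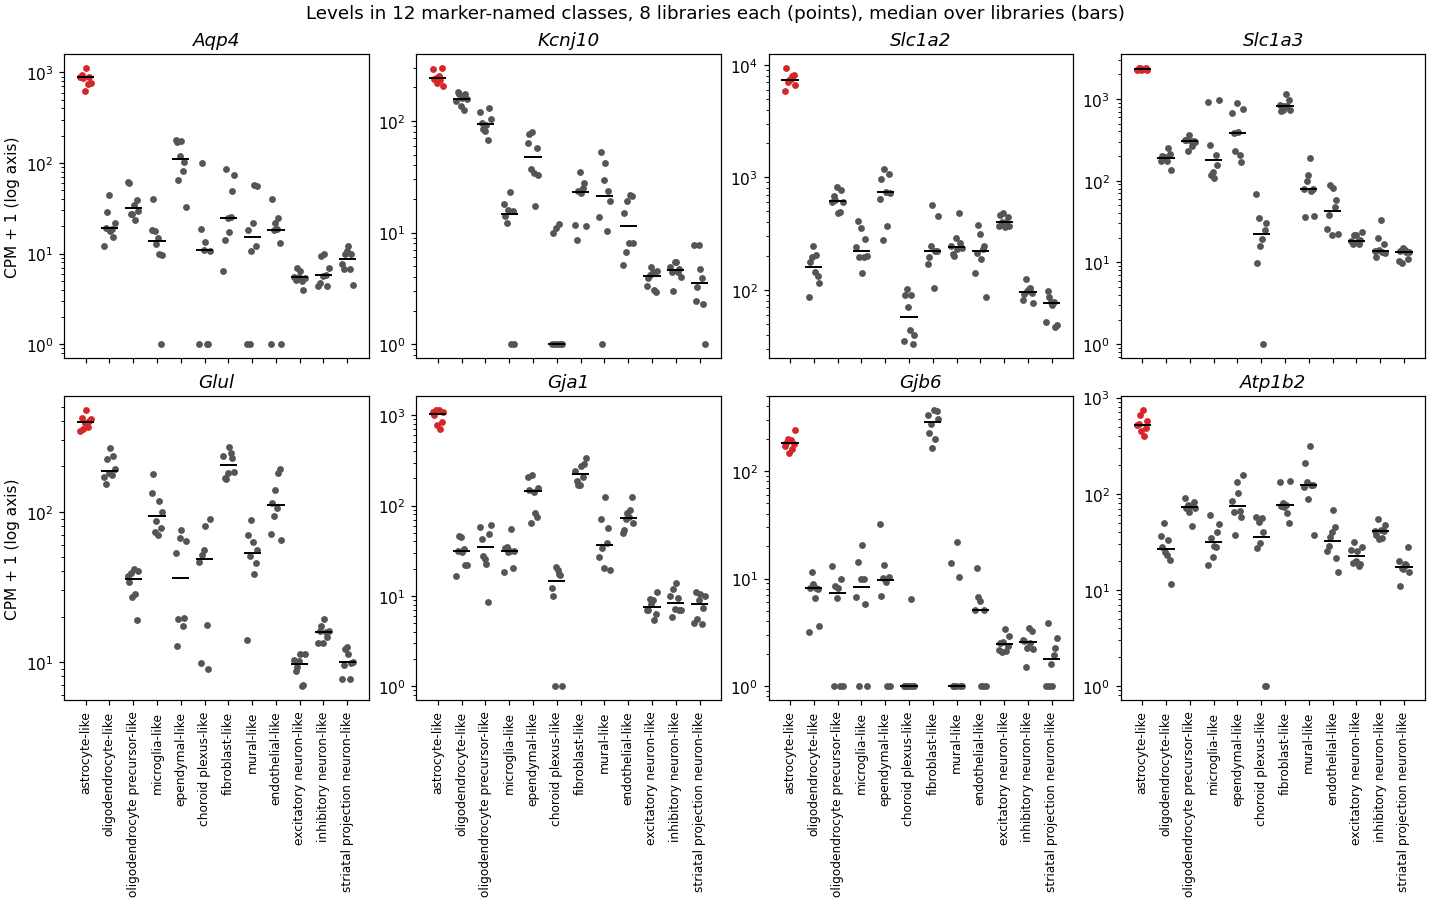
Level of each gene in the 12 marker-named classes, as CPM + 1 on a log axis, with 1 point per library and a bar at the median over 8 libraries. Astrocyte-like nuclei (red) stand above all other classes for 7 genes, while Gjb6 is highest in fibroblast-like nuclei.

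Of the uptake genes, Slc1a2, the main glutamate transporter of the forebrain, had a median of 7389 CPM (5905 to 9413 over libraries) in astrocyte-like nuclei. The ependymal-like class followed with 732 CPM (274 to 1180) and oligodendrocyte precursor-like nuclei with 619 CPM (483 to 816), whose ranges overlap. Excitatory neuron-like nuclei were at 402 CPM (364 to 478), below the precursors without overlap. With 17895 nuclei at a median of 6378 UMIs, against 3305 at 1867 UMIs, excitatory neuron-like nuclei held a median of 30% of all Slc1a2 UMIs of a library, beside 29.2% in astrocyte-like nuclei and 33.6% in the unnamed clusters. Within the excitatory class the level varied by cluster. The cluster led by Hs3st4 and Cdh18 (1975 nuclei) was at 1145 CPM (950 to 1277), the one led by Vwc2l and Tshz2 (358 nuclei) at 1118 CPM (891 to 1290) and the one led by Gm2115 and Ndst4 (988 nuclei) at 100 CPM (67.2 to 134). The ranges of the 2 high clusters did not overlap that of the low one. The part of RNA from other cells in these levels was not tested.

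Slc1a3, the transporter also made by radial glia, was at a median of 2318 CPM (2226 to 2405) in astrocyte-like nuclei, the narrowest range of the 8 genes relative to its level. Fibroblast-like nuclei came next at 815 CPM (717 to 1154), and their 2 clusters differed: the one led by Ranbp3l and Slc6a13 (704 nuclei) was at 1104 CPM (913 to 1459), the one led by Slc47a1 and Bnc2 (232 nuclei) at 62.9 CPM (0 to 185). The fibroblast-like level of Slc1a3 thus came mostly from the Ranbp3l-led cluster. Glul, the enzyme that makes glutamine, was at 394 CPM (342 to 478) in astrocyte-like nuclei. Fibroblast-like nuclei had 204 CPM (163 to 270) and oligodendrocyte-like nuclei 185 CPM (153 to 266), which overlap, and endothelial-like nuclei had 109 CPM (63.7 to 191). Its median ratio of astrocyte-like to fibroblast-like nuclei was 1.96, and among the 7 genes highest in astrocyte-like nuclei only Kcnj10 had a smaller ratio to its next class.

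Of the potassium genes, Kcnj10 was shared most widely within the oligodendrocyte lineage. Its median was 241 CPM (203 to 299) in astrocyte-like nuclei, 158 CPM (125 to 182) in oligodendrocyte-like nuclei and 92.7 CPM (67.1 to 130) in their precursors. In every library the level fell in this order, although the ranges of the latter 2 classes overlap, and the astrocyte to oligodendrocyte ratio was 1.59 (1.31 to 1.92). Neurons were at 2.56 to 3.6 CPM. Atp1b2 was at 523 CPM (399 to 750) in astrocyte-like nuclei and 122 CPM (36.1 to 310) in mural-like nuclei, the contractile cells of vessel walls.

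Of the connexins, Gja1 was at 1040 CPM (712 to 1158) in astrocyte-like nuclei, 222 CPM (167 to 338) in fibroblast-like and 144 CPM (63.8 to 215) in ependymal-like nuclei. Gjb6 was at 286 CPM (164 to 372) in fibroblast-like and 180 CPM (146 to 241) in astrocyte-like nuclei. In libraries control 1, control 2, BCAS 1 and BCAS 2 its fibroblast-like levels were 330, 225, 270 and 164 CPM, and in TBI 1, TBI 2, BCAS+TBI 1 and BCAS+TBI 2 they were 372, 198, 361 and 302 CPM. The fibroblast-like level was above the astrocyte-like level within each of the 8 libraries, though the ranges overlap across libraries. It was at 372 CPM (170 to 473) in the Ranbp3l-led cluster and 122 CPM (40.7 to 179) in the Slc47a1-led one. Every other class had a Gjb6 median of 8.72 CPM or less.

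Aqp4, the water channel, was at 880 CPM (622 to 1125) in astrocyte-like nuclei and at 111 CPM (31.5 to 177) in ependymal-like nuclei, which line the ventricles, a median ratio of 7.54. Only Slc1a2 had a larger ratio to its next class, at 9.48. Aqp4 was at 4.47 CPM (2.98 to 5.9) in excitatory neuron-like nuclei. Astrocyte-like nuclei held a median of 57.1% (44.1 to 72.9) of all Aqp4 UMIs of a library, more than of any other member. The 6 unnamed clusters, with 11420 of the 45560 nuclei, held 30.6%. Most of this was in a cluster of 2485 nuclei with a median of 9904 UMIs, oligodendrocyte markers and a median doublet score of 0.129. Aqp4 was at 59.2 CPM in that cluster. For every member except Aqp4 and Gja1, the unnamed clusters had a higher median share than astrocyte-like nuclei, as with 48.4% against 26% for Kcnj10.

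The genes whose pattern over the 12 classes was most like each member's were found by Pearson's r on mean log2(CPM + 10) over 7458 genes. These r values describe 12 classes that share libraries and depth. For Aqp4 they were Cldn10 (0.985), Gfap (0.982) and Prdx6 (0.980). For Kcnj10 they were Hepacam (0.971), Cmtm5 (0.948) and S100b (0.948). For Slc1a2 they were Rorb (0.969), Mmd2 (0.939) and Pou3f2 (0.938), and for Slc1a3 Lrp4 (0.931), Plpp3 (0.928) and Pdgfrl (0.914). The 2 glutamate transporters thus had different nearest genes, and r between them was 0.769. Glul was nearest to Kmt2c (0.942), Hsd17b11 (0.908) and Fgd6 (0.891), and Gja1 to Ppp1r3c (0.919), Plpp3 (0.915) and C4b (0.907). Gjb6 was nearest to Aspg (0.979), Efemp1 (0.965) and Scara3 (0.959), and Atp1b2 to Palld (0.954), Rcn2 (0.952) and Lrig1 (0.949). The lowest r between members was 0.453, for Kcnj10 and Gjb6.

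The astrocyte-like class consisted of 2 clusters, and 6 members differed between them in the same direction in 8 of 8 libraries. The larger cluster (2297 nuclei) was led by Aqp4 and Gfap and had more of Lhx2, a transcription factor of the telencephalon, at a median of 71.3 CPM against 7.28 CPM. The smaller cluster (1008 nuclei, 24.4% to 39.9% of astrocyte-like nuclei by library) was led by Slc6a11, a GABA transporter, and had more of Agt, which encodes angiotensinogen, at 545 against 134 CPM. Since the clusters come from the same nuclei, the values are a description with no test.

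Kcnj10 was the only member higher in the smaller cluster in every library, with a median ratio of 1.99 (1.74 to 2.59). In the order control 1, control 2, BCAS 1, BCAS 2, TBI 1, TBI 2, BCAS+TBI 1 and BCAS+TBI 2, it was at 443, 385, 399, 300, 402, 344, 565 and 315 CPM in the smaller cluster and at 215, 180, 182, 172, 209, 190, 218 and 165 CPM in the larger one. The lowest library of the smaller cluster was above the highest of the larger one. Slc1a2 went the other way, with a ratio of 0.351 (0.319 to 0.419). In the same order it was at 2602, 3724, 3506, 3284, 3497, 3410, 3215 and 2811 CPM in the smaller cluster and at 7506, 11670, 8370, 9752, 8530, 9618, 9711 and 7888 CPM in the larger one. These ranges do not overlap either, so the 2 genes differed in opposite directions.

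Slc1a3 (median ratio 0.576, 0.482 to 0.687), Glul (0.547, 0.488 to 0.616), Aqp4 (0.62, 0.318 to 0.738) and Gja1 (0.718, 0.515 to 0.834) were also lower in the smaller cluster in 8 of 8 libraries. Both glutamate transporters and the synthetase were thus lower there in CPM, as were the water channel and connexin 43. Gjb6 was higher in the smaller cluster in 6 of 8 libraries (1.17, 0.779 to 1.58), and Atp1b2 in 4 of 8 (1.02, 0.694 to 1.12), so neither had a common direction. The share of the smaller cluster in a library sets part of the class level of Slc1a2 and Kcnj10.

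**Figure D2:**
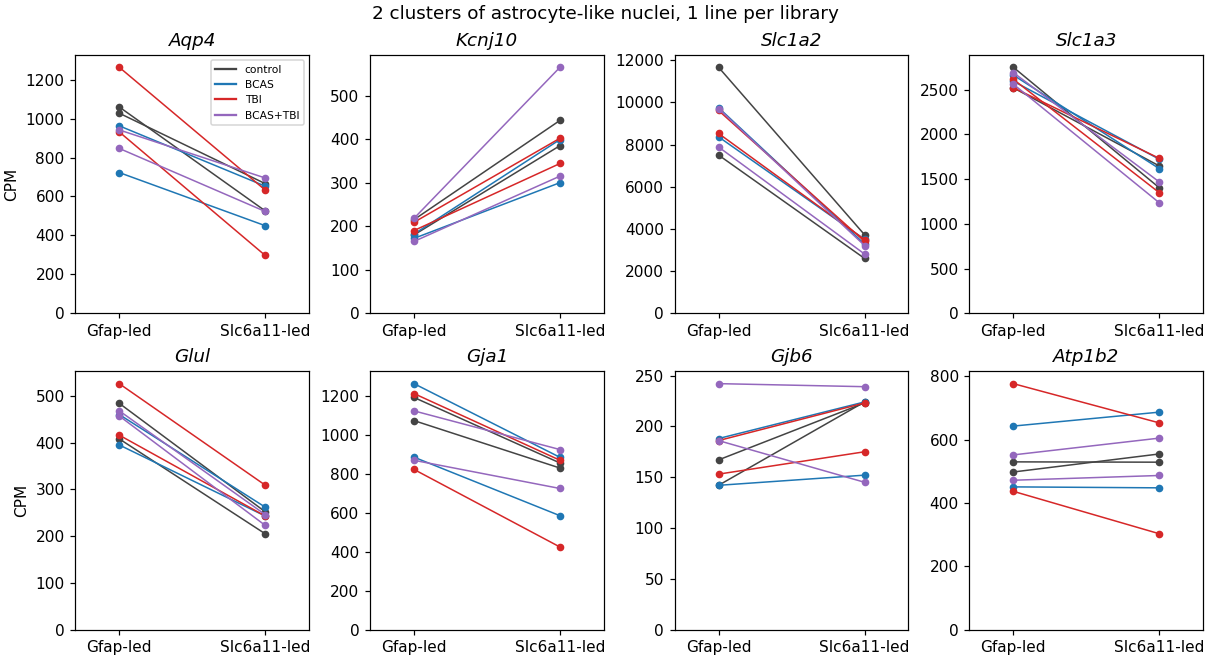
Level of each gene (CPM, axes from 0) in the larger cluster of astrocyte-like nuclei (labelled Gfap-led) and the smaller one (labelled Slc6a11-led), with 1 line per library coloured by group. All 8 lines rise for Kcnj10 and all 8 fall for Slc1a2, Slc1a3, Glul, Aqp4 and Gja1.

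Between the groups, no member passed the test in astrocyte-like nuclei. In edgeR's quasi-likelihood test, 0 of 8 members had an adjusted p under 0.05 in any of the 8 comparisons (each surgery averaged over the other, the 3 surgery groups against control, BCAS+TBI against each single surgery, and the interaction), and 0 had an unadjusted p under 0.05. In the same fits 0% of the 10493 genes tested in the class were called, and 0.648% to 0.953% of them had an unadjusted p under 0.05. With the library set as a block, 0 of 8 members were called, against shares of all genes called as follows. TBI averaged over BCAS had 0.0191%, BCAS averaged over TBI 0% and the interaction 0.0477%. Against control, TBI alone had 0.00953%, BCAS alone 0.0191% and the combination 0.0381%. The combination had 0.0286% against TBI and 0.0477% against BCAS. DESeq2 called 0 members in these comparisons as well.

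The level of each gene by library shows the spread behind this. Slc1a3 was at 2236 and 2368 CPM in control 1 and 2, with BCAS alone at 2368 and 2271, TBI alone at 2337 and 2300, and BCAS+TBI 1 and 2 at 2405 and 2226. All 4 groups lie on top of each other, with group means from 2302 to 2319 CPM. The fold for TBI averaged over BCAS was 1 with a 95% interval of 0.888 to 1.13 in the fit with the set block, and that for BCAS averaged over TBI was also 1 (0.888 to 1.13).

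Slc1a2 was at 5905 and 9413 CPM in control 1 and 2, with BCAS alone at 6995 and 7356, TBI alone at 7423 and 7874, and BCAS+TBI 1 and 2 at 8193 and 6602. The 2 control libraries are the lowest and the highest of all 8, so the other 3 groups lie between them. The TBI fold averaged over BCAS was 1.02 (0.892 to 1.17) with the set block and 1.01 (0.708 to 1.45) without it. Glul was at 342 and 418 CPM in control 1 and 2, with BCAS alone at 352 and 386, TBI alone at 478 and 367, and BCAS+TBI 1 and 2 at 402 and 412. TBI 1 was the highest library, TBI 2 lay within the range of the libraries without TBI surgery, and both BCAS+TBI libraries were above both with BCAS alone. With TBI surgery Glul had 415 CPM ± 46.3 and without it 375 CPM ± 34.6 (mean and SD, n = 4), a log2 difference of 0.15 (SE 0.11) with the set block and an adjusted p of 1 in edgeR.

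Kcnj10 was at 289 and 238 CPM in control 1 and 2, with BCAS alone at 244 and 220, TBI alone at 252 and 233, and BCAS+TBI 1 and 2 at 299 and 203. The highest and the lowest library belong to the same group, BCAS+TBI. Its TBI fold averaged over BCAS was 1.01 (0.849 to 1.2) and its BCAS fold averaged over TBI 0.957 (0.804 to 1.14), with the set block. Atp1b2 was at 517 and 529 CPM in control 1 and 2, with BCAS alone at 655 and 450, TBI alone at 750 and 399, and BCAS+TBI 1 and 2 at 476 and 565. TBI 1 and TBI 2 were the highest and the lowest library, so the groups overlap in full. Its TBI fold was 1.01 (0.85 to 1.2) with the set block.

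Gja1 was at 1084 and 1006 CPM in control 1 and 2, with BCAS alone at 1158 and 775, TBI alone at 1138 and 712, and BCAS+TBI 1 and 2 at 837 and 1074. Within each group the library of set 1 was the higher one. The TBI fold averaged over BCAS was 0.931 (0.805 to 1.08) with the set block. Gjb6 was at 169 and 183 CPM in control 1 and 2, with BCAS alone at 198 and 146, TBI alone at 194 and 159, and BCAS+TBI 1 and 2 at 177 and 241. The highest library was BCAS+TBI 2 and the other BCAS+TBI library was near the middle, and BCAS+TBI against control gave a log2 difference of 0.21 (SE 0.17) with the set block and an adjusted p of 1 in edgeR.

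Aqp4 had the largest estimate among the members for a surgery averaged over the other. It was at 886 and 925 CPM in control 1 and 2, with BCAS alone at 875 and 622, TBI alone at 1125 and 753, and BCAS+TBI 1 and 2 at 884 and 765. Both libraries with BCAS alone were below both controls, by a small margin for BCAS 1. The libraries with BCAS surgery spanned 622 to 884 CPM and those without it 753 to 1125 CPM, which overlap. BCAS averaged over TBI gave a log2 difference of -0.24 (SE 0.11) with the set block, with an unadjusted p of 0.0475 and an adjusted p of 1 in edgeR, and -0.23 (SE 0.20) without it. With the set block it was -0.31 (SE 0.10) in the larger astrocyte-like cluster alone. In the smaller one it was 0.11 (SE 0.18), positive but smaller than its SE. Both had an adjusted p of 1 in edgeR. Leaving out 1 library, with or without that block, gave -0.36 to -0.07, and the value nearest 0 was without TBI 1. At an unadjusted p under 0.05, 4.01% of all genes passed in that blocked fit, which is the background for this single member. For comparison, Gfap, the filament gene that astrocytes raise after injury, was at 643 and 223 CPM in TBI and 248 and 319 in BCAS+TBI against 127 to 228 CPM in the 4 libraries without TBI surgery, which overlap by 1 library.

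**Figure D3:**
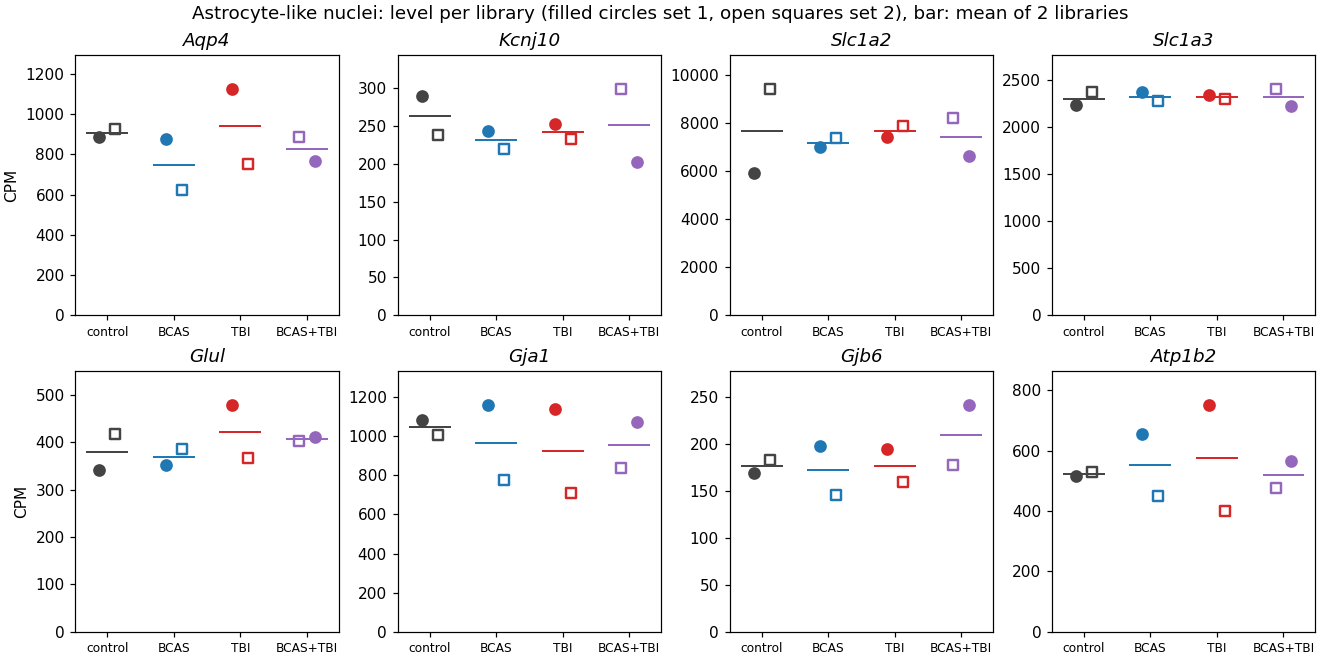
CPM of each gene in astrocyte-like nuclei, with 1 symbol per library (filled circles set 1, open squares set 2) and a bar at the mean of the 2 libraries of a group; axes start at 0. Libraries with and without a given surgery overlap for all 8 genes, and for Gja1 all filled circles lie above all open squares.

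The CPM of the 4 libraries with a surgery and the 4 without it overlapped for all 8 members, for TBI (where 1.49% of genes in the class did not overlap) and for BCAS (1.19%). Estimates over the 8 members ran from -0.10 to 0.15 in log2 for TBI averaged over BCAS and from -0.24 to 0.08 for BCAS averaged over TBI, with the set block. The 95% intervals of the 8 interaction terms in that fit all included 0, and the widest estimate was 0.33 (SE 0.25) for Gjb6.

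**Figure D4:**
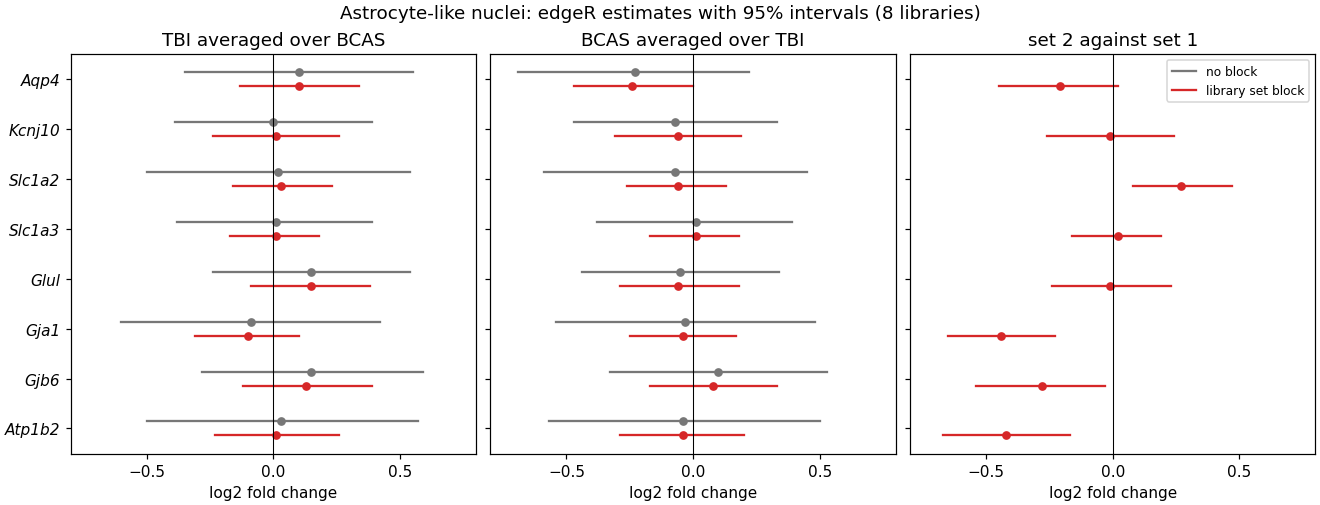
Log2 fold changes with 95% intervals from edgeR in astrocyte-like nuclei, for TBI averaged over BCAS, BCAS averaged over TBI, and library set 2 against set 1; grey is the fit with no block and red the fit with the library set. Estimates of the surgeries lie near 0, and for BCAS averaged over TBI the red interval of Aqp4 ends just below 0. The intervals of Gja1, Atp1b2, Gjb6 and Slc1a2 lie off 0 for the sets.

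Between the library sets, 3 members passed the test. Set 2 was lower than set 1 for Gja1, with 832 CPM ± 126 against 1114 CPM ± 40.5 (mean and SD, n = 4), a log2 difference of -0.44 (SE 0.10) and an adjusted p of 0.0018 in edgeR. It was lower for Atp1b2, with 464 CPM ± 54.2 against 622 CPM ± 103, a log2 difference of -0.42 (SE 0.12) and an adjusted p of 0.00894. It was higher for Slc1a2, with 8209 CPM ± 874 against 6731 CPM ± 645, a log2 difference of 0.27 (SE 0.09) and an adjusted p of 0.0292. The count of 3 of 8 stands beside 29.6% of all genes in the class called between the sets (13.2% higher and 16.3% lower in set 2), and Gja1 was the 1 member without overlap, where 27.7% of genes had none. The count of 3 is near that background, and the 1 member without overlap is below it. Only Gja1 was called under all 19 alternatives. The call of Slc1a2 was lost without control 1 (0.14, adjusted p 0.313), without control 2 (0.15, adjusted p 0.275), without BCAS+TBI 1 (0.30, adjusted p 0.0676) and without BCAS+TBI 2 (0.30, adjusted p 0.0673), in the latter 2 with no smaller estimate. That of Atp1b2 was lost without TBI 1 (-0.25, adjusted p 0.138), TBI 2 (-0.23, adjusted p 0.17), BCAS 1 (-0.39, adjusted p 0.0553) or BCAS 2 (-0.38, adjusted p 0.0588). Gjb6 (-0.28, SE 0.12, adjusted p 0.0858) and Aqp4 (-0.21, SE 0.11, adjusted p 0.163) did not pass, and Gjb6 passed without control 1 (-0.41, adjusted p 0.022) or control 2 (-0.41, adjusted p 0.0241). Kcnj10, Slc1a3 and Glul had estimates of -0.01, 0.02 and -0.01.

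Other measures also separated the sets. In the same astrocyte-like sums the astrocyte markers were at 14827 to 15416 CPM in set 1 and 16378 to 17931 CPM in set 2. Microglia markers were at 145 to 172 CPM against 83.8 to 113 CPM, choroid plexus markers at 127 to 184 CPM against 37.5 to 112 CPM and ependymal markers at 38.3 to 56.4 CPM against 22.7 to 36.3 CPM. Markers of oligodendrocyte precursors were at 126 to 198 CPM in set 1 and 214 to 271 CPM in set 2. The ribosomal share of a library's UMIs was 0.53% to 0.88% in set 1 and 0.249% to 0.301% in set 2. The part of these in the differences of Gja1, Atp1b2 and Slc1a2 was not tested.

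The spans of the genes are given beside this difference, and their part in it was not tested. In GENCODE vM21 on GRCm38, Slc1a2, the member higher in set 2, spans 132 kb (chr2:102658659-102790784), the longest of the 8. Slc1a3 spans 76.6 kb (chr15:8634124-8710764) and Kcnj10 32.9 kb (chr1:172341210-172374085). Gja1 spans 25.2 kb (chr10:56377330-56402513), Gjb6 10.3 kb (chr14:57123303-57133611), Glul 9.78 kb (chr1:153899944-153909723) and Atp1b2 6.21 kb (chr11:69599736-69605942), and Aqp4 on chromosome 18 spans 21.5 kb. Antisense genes overlap Aqp4 (AC133525.2) and Slc1a2 (Gm13872). Glul overlaps Teddm2 on the opposite strand and Mir8114 on its own, and Slc1a3 overlaps Gm37310 on its own strand. The strand setting of the counting is not given in the sources used here, and the part of these partners in the counts was not tested.

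Genes of the same pathways were taken from 4 lists of 55 genes in all. Of these, 42 passed the filter on low counts in astrocyte-like nuclei, and 0 of 42 were called in any of the 8 comparisons by edgeR, with or without the set block. Without the block, 0 of the 42 had an unadjusted p under 0.05 for TBI averaged over BCAS or BCAS averaged over TBI, beside 0.858% and 0.743% of all genes. With the block there were 0 to 4 of 42 over the 8 comparisons, beside 3.78% to 5.89% of all genes. The median log2 difference over the 42 genes was -0.07 for TBI averaged over BCAS, beside 0.01 over all genes of the class, and -0.01 for BCAS averaged over TBI, beside 0.00.

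The genes of each list with the smallest p-values for TBI averaged over BCAS, without the block, had these log2 differences, none of which passed. In the glutamate list they included Pcx, pyruvate carboxylase, at -0.27 (SE 0.20). In the potassium and sodium pump list they were Atp1b3, a pump beta subunit, at 0.26 (SE 0.20), and Fxyd6, a pump regulator, at 0.40 (SE 0.40). Among the water and endfoot genes they were Aqp9, an aquaglyceroporin, at 0.36 (SE 0.29), and Dag1, dystroglycan, at -0.20 (SE 0.17). Of the connexin list only Gjc3, connexin 29 of oligodendrocytes, and the junction scaffold Tjp1 passed the filter, at -0.61 (SE 0.34) and 0.12 (SE 0.17). For BCAS averaged over TBI the corresponding genes included the transaminases Got2 at 0.21 (SE 0.22) and Gpt2 at 0.18 (SE 0.21), the potassium channel Kcnk2 at 0.24 (SE 0.18) and the pump regulator Fxyd7 at -0.16 (SE 0.38), and the syntrophin Sntb1 at -0.24 (SE 0.27). Gjc3 was at 0.28 (SE 0.34) and Tjp1 at -0.10 (SE 0.17). With the set block Gjc3 had -0.64 (SE 0.29) for TBI averaged over BCAS, with an unadjusted p of 0.0348. Oligodendrocyte markers summed to 384 to 680 CPM in the astrocyte-like class, and their part in this value was not tested. All adjusted p-values of these genes were 1 in edgeR, in both fits.

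Between the library sets, 16 of the 42 pathway genes were called by edgeR, 10 higher and 6 lower in set 2, beside the 29.6% of all genes given above. Higher genes of the glutamate list included Grm5 (log2 difference 0.58) and Grm3 (0.47), both metabotropic receptors, and Slc7a11 (0.51), the cystine-glutamate exchanger. Of the potassium list, Kcnma1 (0.60), a calcium-activated potassium channel, and Slc12a2 (0.65), a sodium-potassium-chloride cotransporter, were higher. Fxyd1, a regulator of the sodium pump, had the largest difference (-1.04, SE 0.14), and the potassium channel gene Kcnk1 was also lower (-0.58). Of the endfoot scaffold, Dmd (0.53), Dtna (0.37), Sntb1 (0.62) and Utrn (0.35), which encode dystrophin, dystrobrevin, a syntrophin and utrophin, were higher. Mlc1 (-0.49), Hepacam (-0.30), Lrrc8a (-0.59) and Aqp9 (-0.64), membrane proteins of astrocytes, were lower.

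In the other 10 classes tested, 50 pairs of a member and a class passed the filter on low counts, and 0 were called in any comparison of groups by edgeR, with or without the set block. Over all 94175 pairs of a gene and a class, the share called without the block was 0.00106% for TBI against control and for the interaction and 0% in the other 6 comparisons. With the block it was 0.00637% for TBI averaged over BCAS, 0.0202% for BCAS averaged over TBI and 0.0563% for the interaction. Against control it was 0.0244% for TBI alone, 0.035% for BCAS alone and 0.0223% for the combination, which had 0.0276% against TBI and 0.0244% against BCAS. Over the 8 comparisons, which share libraries, 29 of 400 member values (7.25%) had an unadjusted p under 0.05 without the block, beside 0.992% of the values of all genes in these classes. With the block it was 66 (16.5%) beside 4.35%, so the members' shares lie above that background although no value passed the adjusted threshold. The 66 came from 25 of the 50 pairs of a member and a class, with 5 each from Gja1 in oligodendrocyte precursor-like nuclei and Slc1a3 in microglia-like nuclei. The part of RNA from astrocytes in these low levels was not tested.

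The smallest of these p-values was for Gja1 in oligodendrocyte precursor-like nuclei, where it is low. It was at 56.2 and 41.7 CPM in control 1 and 2, with BCAS alone at 26.6 and 24.3, TBI alone at 21.5 and 7.45, and BCAS+TBI at 47.1 and 60.2, from 103 UMIs in all. Both single surgeries were below control and the combination was near it. The interaction was 2.73 (SE 0.62) in log2 with the set block, with an unadjusted p of 0.000135 and an adjusted p of 0.125 in edgeR, and the adjusted p was 1 without the block. Slc1a2 was called between the sets in excitatory neuron-like nuclei (0.45, SE 0.05, adjusted p 7.09e-05), oligodendrocyte-like nuclei (0.50, adjusted p 0.0268) and their precursors (0.29, adjusted p 0.0455), in the same direction as in astrocyte-like nuclei. Atp1b2 was called in excitatory neuron-like nuclei (-0.38, SE 0.08, adjusted p 0.00408), also in the same direction, and Glul in endothelial-like nuclei (0.83, SE 0.22, adjusted p 0.00716). These are 5 of the 50 pairs of a member and a class, a smaller share than the 32.6% of all pairs of a gene and a class.

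Slc1a3 in microglia-like nuclei divided the libraries in a way that neither the groups nor the sets follow. These 784 nuclei were led by Inpp5d and Csf1r, microglial genes. Slc1a3 was at 923 CPM in control 1 and 956 CPM in BCAS+TBI 2. It was at 275 CPM in control 2 and 155 CPM in BCAS+TBI 1, while BCAS 1 and 2 were at 117 and 128 CPM and TBI 1 and 2 at 108 and 205 CPM. The former 2 libraries lie far above the other 6, and both belong to set 1, as do BCAS 1 and TBI 1, which are low.

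The nuclei showed the same division. A Slc1a3 UMI was found in 61.1% of 95 microglia-like nuclei of control 1 (95% Wilson interval 51 to 70.2) and 63.2% of 106 nuclei of BCAS+TBI 2 (53.7 to 71.8), at medians of 945 and 1145 UMIs per nucleus. In the other 6 libraries the share was 20.3% to 26.3%, at medians of 1071 to 1529 UMIs. With each nucleus thinned to 500 UMIs, the shares were 42.1% and 42.5% against 5.71% to 15.2%. In endothelial-like nuclei the share was 2.35% to 6.71% at medians of 811 to 1250 UMIs. It was 3.12% in control 1 and 2.35% in BCAS+TBI 2. No single microglia-like nucleus held more than 6.83% of the Slc1a3 UMIs in control 1 or 6.76% in BCAS+TBI 2, so the signal of these libraries was spread over nuclei. In control 2 a single nucleus held 40.5% of the 42 UMIs, and in the remaining libraries the top nucleus held 9.3% to 17.9%. Intervals cover counting error only.

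Slc1a2, the other astrocyte transporter, did not follow it. Its microglia-like levels were 241 CPM in control 1 and 198 CPM in BCAS+TBI 2, within the range of 141 to 412 CPM of the other 6 libraries, and 13.7% and 17% of nuclei had a Slc1a2 UMI there against 22% to 35.3% elsewhere. With each nucleus thinned to 500 UMIs, the shares were 7.37% and 3.77% against 6.33% to 17.3%, so control 1 lay within the range of the others. With 1 control and 1 BCAS+TBI library high, the edgeR interaction for Slc1a3 was 4.28 (SE 1.10) in log2, with an unadjusted p of 0.00186 and an adjusted p of 1, and 3.66 (SE 0.94, adjusted p 0.43) with the set block. It is carried by 1 library in each of 2 groups and did not pass the threshold. Why Slc1a3 was high in these 2 libraries, and the part of RNA from other cells in it, was not tested.

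**Figure D5:**
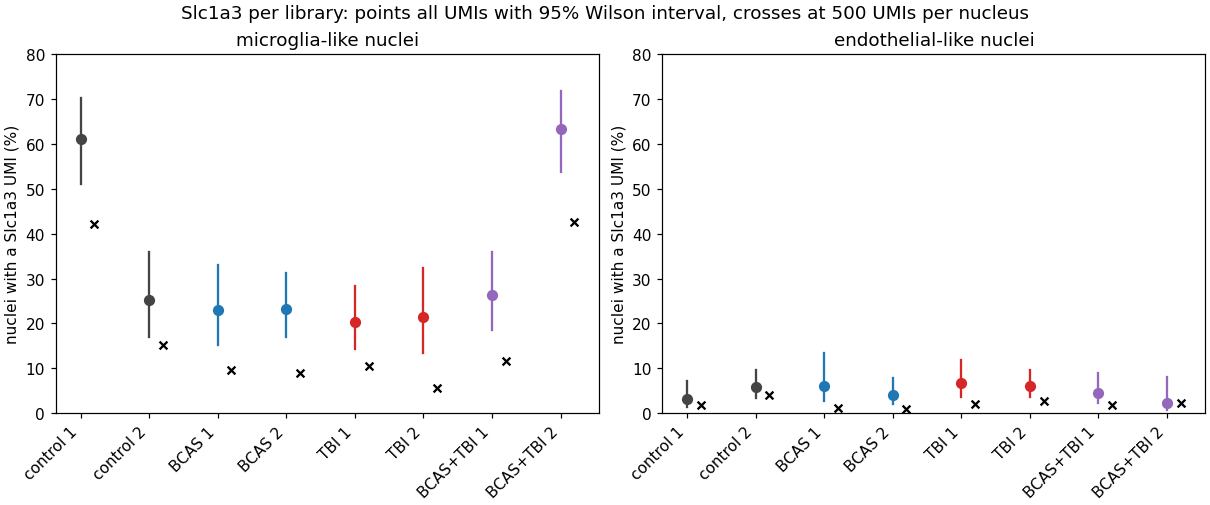
Share of nuclei with a Slc1a3 UMI in microglia-like nuclei (left) and endothelial-like nuclei (right) per library, as points with 95% Wilson intervals, and after thinning to 500 UMIs per nucleus, as crosses. Control 1 and BCAS+TBI 2 reach 61.1% and 63.2% of microglia-like nuclei while the other libraries stay at 20.3% to 26.3%.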

How the data were processed

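The deposited matrices hold raw UMI counts per gene and barcode, 1 per library. Per the file headers the authors made them with Cell Ranger 7.0.0, and the submitters' processing notes name Seurat, GRCm38 and mm10. Of 53390 barcodes, 4922 were dropped for having under 500 UMIs, under 300 genes or over 5% mitochondrial UMIs, and the 6% with the highest Scrublet scores per library (2908) were removed, since Scrublet itself marked 7. Clusters came from 3000 variable genes, 30 principal components, 15 neighbours and Leiden at resolution 1 (scanpy 1.11.5, igraph 0.11.9). Of 35 clusters, 6 stayed unnamed. A class needed 3 markers at least 2-fold higher, detected in 10% of nuclei, and a mean log2 fold of 1.5. Neurons needed a ratio of 5 between excitatory and inhibitory markers.

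Counts were summed per library and class and tested with edgeR 4.0.16 in R 4.3.3 (TMM, minimum count 10, quasi-likelihood, two-sided, term for the 4 groups, all 8 libraries), where each library had 20 or more nuclei of the class, so ependymal-like nuclei were not tested. Benjamini-Hochberg adjustment ran over all 94175 pairs of a class and a gene, at a threshold of 0.05. The library set, split at the largest gap in log total UMIs, was added as a block in the second fit. Scripts were tested on simulated data. The 8 genes, markers and lists were chosen with earlier results of these data known. All 8 genes are named throughout. Pathway genes are named where called, or among the 2 smallest p-values of a list for each averaged surgery. Some genes that this rule names are not reported here. Genes alike in pattern are the 3 of highest r among those of at least 50 CPM in 1 class. The Slc1a3 values in microglia-like nuclei, the leading excitatory and fibroblast-like clusters and Gja1 in precursors were singled out after their values were seen. Per the labels replicates are biological, and alternatives were DESeq2 1.42.0, other normalization, filters, gates, clusters, depth and leaving out each library.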

Additional observations from a re-analysis of the deposited data

How the results depend on the processing

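Over 35 alternatives, 0 of 2216 values for the 64 pairs of a member and a comparison of groups in astrocyte-like nuclei passed the threshold, and 55 moved by over 1 SE. The count of members called stayed at 0 in all of these fits, leaving out each library included. Between the library sets, DESeq2 called 1 member (Gja1) in place of 3, and leaving out a library gave 2 to 3. Slc1a2 was not called under DESeq2 (0.29, adjusted p 0.0966), the per-nucleus marker gate (0.20, adjusted p 0.464) or in the smaller cluster alone (0.07, adjusted p 0.682), a fit chosen after seeing the data. Atp1b2 was not called under DESeq2 (-0.41, adjusted p 0.0507) or the gate (-0.50, adjusted p 0.0827), and Gjb6 was called under the gate (-0.48, adjusted p 0.0347). The cause was not tested. No called value changed sign.

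The labels do not say whether the replicate numbers pair the libraries. Deviations of same-numbered libraries correlated at 0.46 to 0.58 over genes among control, BCAS and TBI and at -0.63 to -0.54 with BCAS+TBI. Replicate 1 is in set 1 in every group except BCAS+TBI, so these signs follow the library sets and cannot show whether the numbers mark a pairing. With the replicate number as a block 0 members were called. With 2 libraries per group and 253 to 566 astrocyte-like nuclei in each, the 95% intervals of the averaged surgeries without a block ran from 0.621-fold (Aqp4, BCAS) to 1.5-fold (Gjb6, TBI) over the 8 members, and from -0.47 to 0.39 in log2 with the library set as a block. Each interval holds the changes compatible with the data in its fit and is not a limit of detection.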
